A study of Homo sapiens with 4 samples.

Results

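TRIM28 binding in LNCaP cells was compared between R1881, a synthetic androgen, and its ethanol vehicle. LNCaP is an androgen-responsive human prostate cancer cell line. The members are the binding sites called by the authors in the TRIM28 ChIP-seq of each condition, on chromosomes 1 to 22 and X. There were 34152 sites with R1881 and 57690 with ethanol, 91842 of the 107370 sites in the 4 lists of the series (TRIM24 and TRIM28, each with R1881 and with ethanol). A site of one condition matched a site of the other when they overlapped by at least 1 bp. R1881 sites with no match were named gained (12779 sites), ethanol sites with no match were named lost (36318 sites), and matched sites were named kept (21373 R1881 sites and 21372 ethanol sites). These names describe the lists and carry no test, since each condition is a single sample with no replicate.

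Cells of both conditions spent 3 days in medium with 5% charcoal-stripped serum, which is depleted of steroid hormones. They then received 10 nM R1881 or ethanol for 16 h and were fixed with 1% formaldehyde. The same TRIM28 antibody was used for both, and the labels give the genotype of the line as WT. The labels name HA-TRIM24 in the titles of the HA samples only, whereas the legend of the study describes cells stably expressing HA-tagged TRIM24 for both ChIPs, so the presence of the transgene in the TRIM28 samples is uncertain. Lists of binding sites hold no expression values, so the cell type could not be checked against its markers.

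TRIM28, also called KAP1, is a corepressor with no sequence-specific DNA binding of its own. KRAB zinc finger proteins bring it to DNA, where it gathers the histone methyltransferase SETDB1, HP1 proteins and the NuRD complex, and it is known for silencing repeats and for occupying the zinc finger exons of ZNF genes. Androgen bound to its receptor leads that receptor to androgen response elements (AREs), which pair 2 copies of a short element, and in prostate cells the pioneer factor FOXA1 opens many of these enhancers through forkhead motifs. Whether TRIM28 sites differ with androgen, and whether those that differ hold these motifs, is the question the comparison addresses.

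The sites below carry the motif part of the comparison. They are shown because each holds an ARE or a FOXA1 motif in a class that differed between the conditions, and they were chosen after their values were seen. Each is the whole site, read from the plus strand of GRCh37 (hg19 in the authors' files), and capitals mark the best motif match on either strand. The sites near STK39 (chr2:168943519-168943675) and LDLRAD3 (chr11:35929711-35929867) are kept sites that were over 2-fold higher with R1881 and match the ARE consensus with 0 mismatches. The site near SLC29A2 (chr11:66140811-66140967) is a gained site with an exact ARE. For FKBP5, a gained site (chr6:35578720-35578876) with 1 mismatch and a lost site (chr6:35569730-35569894) with an exact ARE both lie in introns. The sites near PRR5 (chr22:45041053-45041209) and NOG (chr17:54567464-54567620) are kept, over 2-fold higher with R1881, and match the FOXA1 consensus exactly.
STK39: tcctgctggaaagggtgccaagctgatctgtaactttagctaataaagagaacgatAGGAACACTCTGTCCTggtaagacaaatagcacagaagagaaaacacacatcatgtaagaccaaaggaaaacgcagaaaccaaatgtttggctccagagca
LDLRAD3: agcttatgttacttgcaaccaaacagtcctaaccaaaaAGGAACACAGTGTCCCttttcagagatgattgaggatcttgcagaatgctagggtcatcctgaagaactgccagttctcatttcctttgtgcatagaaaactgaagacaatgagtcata
SLC29A2: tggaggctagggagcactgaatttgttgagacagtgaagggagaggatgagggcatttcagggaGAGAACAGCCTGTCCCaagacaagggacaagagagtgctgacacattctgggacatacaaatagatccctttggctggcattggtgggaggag
FKBP5 gained: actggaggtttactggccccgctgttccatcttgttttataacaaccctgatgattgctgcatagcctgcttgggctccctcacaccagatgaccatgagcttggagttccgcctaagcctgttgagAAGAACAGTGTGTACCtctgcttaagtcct
FKBP5 lost: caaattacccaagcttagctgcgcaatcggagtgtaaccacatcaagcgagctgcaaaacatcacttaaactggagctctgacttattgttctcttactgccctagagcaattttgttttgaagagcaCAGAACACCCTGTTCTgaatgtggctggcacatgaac
PRR5: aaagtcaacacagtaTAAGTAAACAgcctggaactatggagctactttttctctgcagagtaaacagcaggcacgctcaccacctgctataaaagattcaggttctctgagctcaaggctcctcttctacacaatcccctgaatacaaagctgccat
NOG: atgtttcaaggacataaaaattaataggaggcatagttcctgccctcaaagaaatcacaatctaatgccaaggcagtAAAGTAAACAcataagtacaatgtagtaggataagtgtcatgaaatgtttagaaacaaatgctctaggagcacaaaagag

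Strength is the normalized tag count, the tags of a site scaled by the authors to 10000000 tags in the library. In the intron of STK39, a kinase that regulates ion transport, the kept site had 16.9 normalized tags with R1881 and 5.6 with ethanol. The site 35.7 kb upstream of LDLRAD3, a receptor of the LDL receptor family, had 16.2 and 5.2. Both overlapped a TRIM24 site with R1881 (9.3 and 11.6 normalized tags) and none with ethanol. The gained site 1.2 kb upstream of SLC29A2, a nucleoside transporter, had 10.5, and no TRIM24 site lay under it. FKBP5, a co-chaperone of steroid receptors and an established androgen target, had 9.8 at its gained ARE site and 6.4 at its lost one, so AREs of a single gene stood on both sides of the comparison. The site near PRR5, a subunit of mTORC2, had 25.3 with R1881 and 8.7 with ethanol, and TRIM24 with R1881 had 23.3 there. The site 104 kb from NOG, an inhibitor of BMP signalling, had 18.3 and 8.4.

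The depth of the 2 libraries bears on every count. The ethanol library held 25145171 tags and the R1881 library 14231181, 0.566 times as many. A site needed 12 tags with ethanol and 9 with R1881, which correspond to 4.77 and 6.32 normalized tags. The authors' score, to which that minimum applies, differs from the tag count, so the lowest sites had 4.0 and 5.6 normalized tags. Of all tags, 4.95% with ethanol and 3.8% with R1881 lay in sites. The median site had 6.4 normalized tags with ethanol and 7.7 with R1881, and weaker binding was not detectable at these depths. Intervals given below cover the sampling of sites or tags and not the variation between cultures.

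Of the R1881 sites, 37.4% were gained (Wilson 95% confidence interval 36.9 to 37.9), and of the ethanol sites, 63.0% were lost (62.6 to 63.3). Nearly all sites that were not kept were weak. Gained sites had a median of 7.0 normalized tags (interquartile range 6.3 to 8.4) and lost sites a median of 6.0 (5.2 to 6.8), against 8.4 with R1881 and 8.0 with ethanol at kept sites. When only sites with at least 10 normalized tags were asked for, the excess of lost sites was gone, with 15% of R1881 sites gained (977 of 6529, 14.1 to 15.8) and 15.6% of ethanol sites lost (1002 of 6433, 14.7 to 16.5).

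The share of sites kept went up with strength as far as 20 to 30 normalized tags in the ethanol list and 15 to 20 in the R1881 list. Among ethanol sites of 6 to 8 normalized tags, 32.8% were kept (32.2 to 33.4), among those of 10 to 12 it was 75.7% (74.1 to 77.2), and among those of 20 to 30 it was 98.7% (97.2 to 99.4). Above 100 normalized tags it was 92.8% of ethanol sites (85.8 to 96.5) and 85.5% of R1881 sites (77.7 to 90.8). To allow for depth, the tags of each ethanol site were thinned to the R1881 total, taking the observed tags as the true rate. By this construction 59.5% of ethanol sites would keep the 9 tags of the R1881 minimum, while 37% were kept (36.7 to 37.4). The gap was widest at 8 to 10 normalized tags, where 94.5% were expected and 55.4% kept (54.4 to 56.4), and at 6 to 8 the expected share was 66.3%. The opposite direction showed a gap too, although the library searched was the deeper one. Of R1881 sites with 8 to 10 normalized tags, 68.5% had an ethanol match (67.5 to 69.5), with 99.3% expected. Sites of both lists thus went unmatched more often than this construction gives. It applied the tag minimum alone, without the local filter or the overlap of positions. It also took as true the tags of sites that had already passed a minimum, which raises the expected share. With 1 sample a condition, the gap cannot be told apart from the variation between 2 libraries of the same cells.

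**Figure D1:**
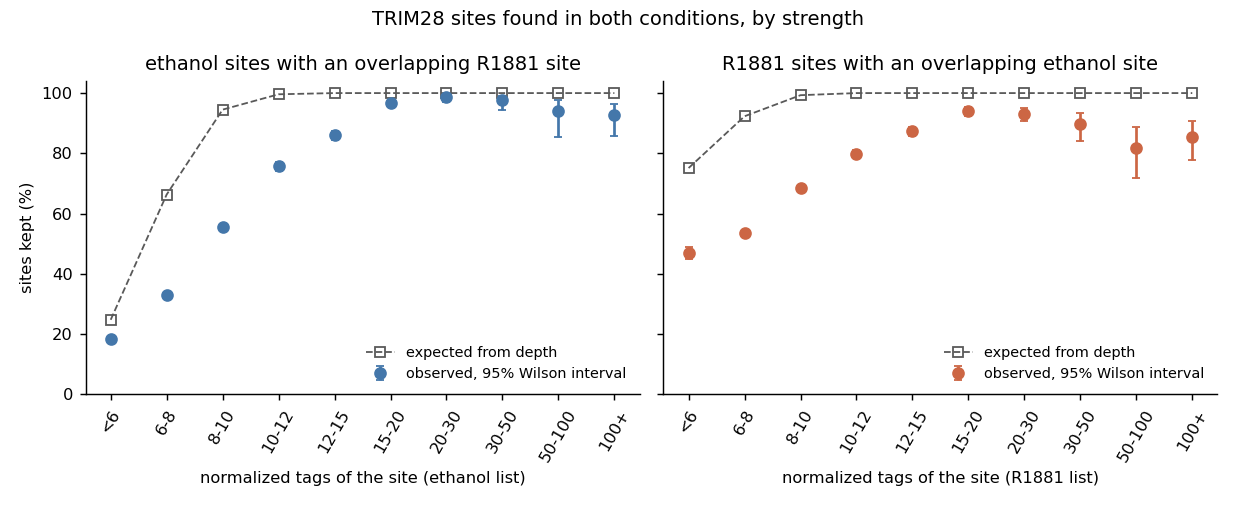
Share of TRIM28 sites with an overlapping site in the other condition (y axis, percent) by normalized tags of the site (x axis, classes), for ethanol sites (left) and R1881 sites (right); points are observed shares with Wilson 95% intervals and open squares the share expected from depth. Observed shares lie below the expected ones, at 55.4% against 94.5% for ethanol sites of 8 to 10 normalized tags and at 68.5% against 99.3% for R1881 sites of that strength.

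Some unmatched sites stood close to a site of the other list. An ethanol site lay within 500 bp of 23.9% of gained sites (3052 of 12779), and an R1881 site lay within 500 bp of 10.4% of lost sites (3777 of 36318). At high strength, ZNF678 had a gained site of 21.8 and a lost site of 21.9 in its coding exon, within 500 bp of each other, and ZNF420 a gained site of 20.4 beside a lost site of 18.3. In both genes a site named gained and a site named lost stood side by side.

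Strong sites that were not kept were few. With at least 15 normalized tags, 134 of 1748 R1881 sites were gained (7.67%, 6.51 to 9.01) and 55 of 1795 ethanol sites were lost (3.06%, 2.36 to 3.97). Many lay beside centromeres. Within 5 Mb of the longest run of undetermined bases of a chromosome lay 77 of the 134 strong gained sites (57.5%, 49.0 to 65.5), 20 of the 55 strong lost sites (36.4%, 24.9 to 49.6) and 359 of the 1614 strong kept R1881 sites (22.2%, 20.3 to 24.3), against 8.97% of all R1881 sites. Outside these regions, 57 of 1312 strong R1881 sites were gained (4.34%, 3.37 to 5.59) and 35 of 1397 strong ethanol sites were lost (2.51%, 1.81 to 3.46), with overlapping intervals. Without those that had a site of the other list within 500 bp, 41 gained and 22 lost sites were left.

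Above 100 normalized tags stood 16 gained and 7 lost sites, which are not named here. The 10 strongest gained sites up to 100 normalized tags were all within 5 Mb of a centromere gap. The first of them, at chrX:61694631-61694787, had 97.7 normalized tags and 7.31 times the tag density of its surroundings, and its nearest protein-coding transcription start site (TSS) was that of SPIN4, 877 kb away. A site on chromosome 2 (chr2:92272915-92273071) had 97.0, and sites on chromosome 10 nearest to ZNF33B had 95.6 and 82.2. Nearest to OR4C46, an olfactory receptor, stood a site of 82.9. The other 5 had SHCBP1 (80.8), ZNF722 (72.4), ALG10 (68.9), TPTE (63.2) and an unnamed gene on chromosome 16 (62.5) nearest to them. These distances reached 1730 kb, so the genes locate the sites and little more. Of the strongest lost sites, 5 of 10 were pericentromeric, nearest to HGSNAT (60.8), CWH43 (47.3), ZXDA (38.2), EPHA3 (31.0) and ALG10 (28.6). The 5 strongest kept pairs up to 100 normalized tags in both lists were of the same kind or lay near chromosome ends and stood at similar levels in both conditions with 1 exception. Nearest to FAM27E3, the pair had 97.7 normalized tags with R1881 and 91.1 with ethanol (ratio 1.07, exact 95% interval 0.862 to 1.33, counting error only). At the end of chromosome 12 (chr12:95532-95688), the values were 92.8 and 47.3 (ratio 1.96, 1.52 to 2.53).

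On chromosome arms, the strong sites found in a single condition were of several kinds. These sites were named after their values were seen. With R1881, 6 gained sites lay at the genes RNA5S8, RNA5S11, RNA5S12, RNA5S13, RNA5S16 and RNA5S17 of the 5S ribosomal RNA cluster on chromosome 1, with 21.8, 21.1, 28.1, 22.5, 19.7 and 23.2 normalized tags. None of the 6 had an ethanol site within 500 bp. Their tag density was 4.12 to 7.54 times that of their surroundings, and a call needed 4 times. Whether ethanol signal here was removed by this local filter was not tested. At RNA5S1, in the same cluster, the site was kept, with 17.6 normalized tags with R1881 and 15.9 with ethanol. TRIM24 had a site at all 7 in both conditions, at 77.6 to 111.8 normalized tags with R1881 and 31.9 to 56.0 with ethanol. The 5S genes are near-identical copies, so tags could be placed in any of them, and the division between copies is uncertain. Gained sites of 49.9, 40.1 and 37.2 normalized tags lay in introns upstream of the ANKRD30BL TSS on chromosome 2, where the nearest TSS of any gene was that of RNA5-8SP5, a pseudogene of 5.8S ribosomal RNA.

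Other strong gained sites on the arms lay away from ribosomal genes. A site 48.6 kb upstream of RRAS2, a Ras-related GTPase, had 29.5 normalized tags (chr11:14434601-14434757). A site in an intron of ESRRG, an orphan nuclear receptor, had 23.2 (chr1:217076166-217076322), and TRIM24 had a site of 24.1 there with R1881 and none with ethanol. A site in an intron of CARMIL1, a regulator of actin capping, had 22.5 and a TRIM24 site of 19.4, again with R1881 only. The site 18.2 kb upstream of TNP1 had 26 and no TRIM24 site. Near MEGF10 the gained site had 20.4 normalized tags, with a TRIM24 site of 10.9. Of the 57 strong gained sites on the arms, 33 overlapped a TRIM24 site with R1881 (57.9%, 45.0 to 69.8) and 17 a TRIM24 site with ethanol (29.8%, 19.5 to 42.7). Of the 35 strong lost sites on the arms, 9 overlapped a TRIM24 site with R1881 (25.7%, 14.2 to 42.1) and 6 with ethanol (17.1%, 8.1 to 32.7). Over all strong R1881 sites, pericentromeric ones included, the shares were 37.8% with R1881 (35.5 to 40.1) and 31.8% with ethanol. The ethanol share of the strong gained sites on the arms was thus close to that of all strong R1881 sites. Over all strong ethanol sites, pericentromeric ones included, the shares were 30.3% (28.2 to 32.4) and 28.9% (26.8 to 31.0).

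Coding exons held several of the strong lost sites. Site centres lay in them in 7 of the 35 (20%, 10.0 to 35.9), in 6 of the 57 strong gained sites (10.5%, 4.91 to 21.1) and in 56 of the 1255 strong kept R1881 sites on the arms (4.46%, 3.45 to 5.75). FOXO1, a forkhead transcription factor, had 27.8 normalized tags in exon 2 (chr13:41133723-41133887) and 19.9 in exon 1 (chr13:41239791-41239955), and no kept site had its TSS nearest. With R1881, a gained site of 7.7 lay in its promoter (chr13:41240563-41240719). A lost site of 9.1 in the same promoter (chr13:41240178-41240342) lay within 500 bp of it. The strongest lost site on the arms up to 100 normalized tags lay 2.01 kb downstream of the GH1 TSS (chr17:61994088-61994252), at 76.4 normalized tags, and no other site of either list had the TSS of GH1, the pituitary growth hormone gene, nearest to it. LCOR, a ligand-dependent corepressor of nuclear receptors, had a lost site of 67.6 in its exon 8 (chr10:98742087-98742251) and a gained site of 46.4 in the same exon (chr10:98743157-98743313). Their tag densities were 4.07 and 4.65 times those of their surroundings, close to the 4 times that a call needed. Whether the other condition had uncalled signal at these positions was not tested. VWA5B2 had a lost site of 18.7 in a coding exon. The remaining strong lost sites included one of 23.5 downstream of the TSS of ELF3, an epithelial ETS factor, where TRIM24 had a site in both conditions (17.2 with ethanol and 9.3 with R1881), and one of 31.0 near RNF141 that had an R1881 site within 500 bp.

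At the 21373 kept pairs, TRIM28 strength was close in the 2 conditions. The median log2 ratio of R1881 to ethanol normalized tags was 0.08 (interquartile range -0.19 to 0.39), a ratio of 1.06, and across the 2275 pairs with at least 15 normalized tags in one list it was -0.03. At least 2-fold higher with R1881 were 546 pairs (2.55%), and at least 2-fold lower were 179 (0.838%). The calling minimum bears unequally on these counts, since the weakest of the higher pairs had 8.4 normalized tags with R1881 and 4.0 with ethanol, and the weakest of the lower pairs 11.5 with ethanol and 5.6 with R1881. The split also moved with the scaling, to 360 higher and 278 lower when each list was divided by its median at kept sites, and to 903 and 107 with the deposited fold over the local region. Where one list had at least 15, the numbers were closer, at 122 pairs higher and 96 lower.

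**Figure D2:**
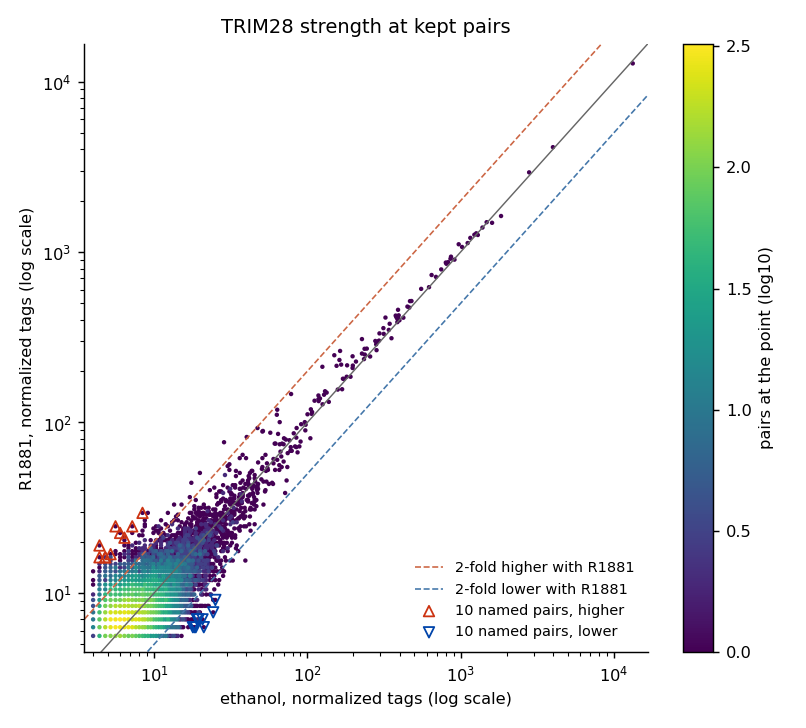
Normalized tags with R1881 (y axis, log scale) against ethanol (x axis, log scale) for the 21373 kept pairs, coloured by the number of pairs at each point; dashed lines mark 2-fold differences and triangles the 10 named pairs of each direction. Pairs lie around the line of equality, with 546 at or above the upper dashed line and 179 at or below the lower one.

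The 10 pairs with the highest ratios, among those with at least 15 and at most 100 normalized tags, spanned ratios of 3.25 to 4.39. These pairs were picked by their ratio, and the intervals given for them make no allowance for that choice. The first lay 15.1 kb downstream of the TSS of RASGEF1A, an exchange factor for Ras-family proteins, with 24.6 normalized tags with R1881 and 5.6 with ethanol (ratio 4.39, exact 95% interval 2.32 to 8.89, counting error only), 1.33 Mb from a centromere gap. INO80C, a subunit of the INO80 chromatin remodeller, had 19.0 and 4.4 at a site 16.8 kb downstream of its TSS (ratio 4.32, 2.08 to 9.69). NEGR1, a neuronal adhesion molecule, had 22.5 and 6.0 in an intron (ratio 3.75). ATXN10 had 16.2 and 4.4 (ratio 3.68), and SDK2, an adhesion molecule, 29.5 and 8.4 (ratio 3.51). These 5 sites lay in introns or between genes, none at a promoter.

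Next in order came IRF4, a lymphoid transcription factor, with 24.6 and 7.2 at a site 77.4 kb downstream of its TSS (ratio 3.42, 1.89 to 6.44). MAP7D1 and RGSL1 both had 16.2 and 4.8 (ratio 3.38), and the RGSL1 site was the single promoter site of the 10. PARP14, an ADP-ribosyltransferase, had 21.1 and 6.4 at 29.0 kb upstream, and TRIM24 there had 56.7 normalized tags with R1881 and 15.5 with ethanol. TMEM182 had 16.9 and 5.2 (ratio 3.25, 1.6 to 6.98). TRIM24 sites with R1881 lay under 6 of these 10 sites, and under 4 of those there was none with ethanol. Over all 546 pairs at least 2-fold higher, the share with R1881 was 28.4% (24.8 to 32.3). Among the 122 of them with at least 15 normalized tags, as these 10 had, it was 51.6% (42.9 to 60.3). A TRIM24 site with R1881 only lay under 24.6% of the 122 (17.8 to 32.9).

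The 10 pairs with the lowest ratios ran from 0.299 to 0.366. Their intervals, too, make no allowance for the choice by ratio. ELFN1, a synaptic adhesion protein, had 6.3 normalized tags with R1881 and 21.1 with ethanol (ratio 0.299, exact 95% interval 0.13 to 0.614, counting error only). TBC1D2B, a Rab GTPase-activating protein, had 7.7 and 24.3 at its promoter (ratio 0.317, 0.151 to 0.611). FBXO33 had 6.3 and 18.7, and TEKT5, a tektin of the sperm flagellum, 7.0 and 20.7 at its promoter. PRKDC, the catalytic subunit of DNA-dependent protein kinase, had 6.3 and 18.3 in a coding exon. ZMIZ1, a coregulator of the androgen receptor, had 6.3 and 17.9 at a site 104 kb upstream, and LRFN5 7.0 and 19.5. CLDN12 had 9.1 and 25.1, and ZNF324B and RFPL4B both had 7.0 and 19.1. No TRIM24 site of either condition overlapped any of these 10 sites. Over all 179 pairs at least 2-fold lower, the shares were also small, at 10.6% with R1881 and 8.94% with ethanol. The 10 sites had 6.3 to 9.1 normalized tags with R1881, and overlap with TRIM24 went up with strength, as given below.

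**Figure D3:**
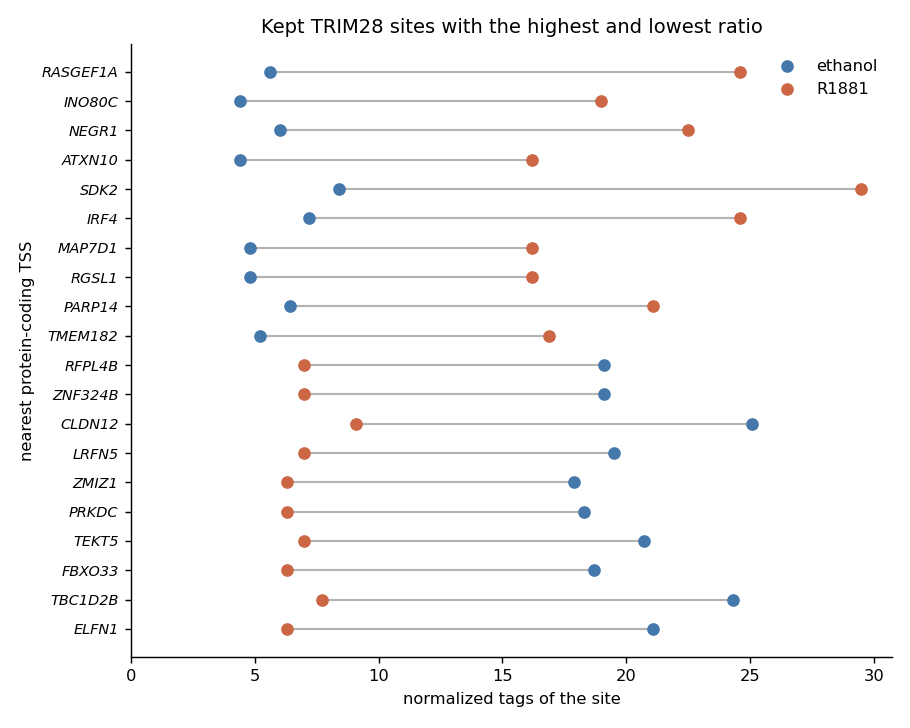
Normalized tags (x axis) with ethanol (blue) and R1881 (orange) at the 10 kept TRIM28 sites with the highest and the 10 with the lowest ratio, named by the nearest protein-coding TSS (y axis); each line joins the 2 values of a site and no error is drawn, since each condition is 1 sample. The ratio is 4.39 at RASGEF1A and 0.299 at ELFN1.

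Motif shares differed between the classes of sites. The ARE and FOXA1 consensus sequences came from the study's motif table and were looked for, in either orientation, within a 200 bp window at the centre of each site, allowing 1 mismatch for the ARE, 0 for FOXA1 and 3 for CTCF. A match is a description of the sequence and not evidence of a bound factor. AREs were present in 120 gained sites (0.939%, 0.786 to 1.12), 101 kept sites (0.473%, 0.389 to 0.574) and 84 lost sites (0.231%, 0.187 to 0.286). Windows of the same length 5 kb downstream of the sites held one in 0.188%, 0.164% and 0.171%, so lost sites were close to that level. The shorter element AGAACA, 1 form of the ARE's repeated unit and thus overlapping the full motif, followed the same order, at 22.2% of gained, 16.8% of kept and 14.7% of lost sites, with 14.9%, 14.9% and 14.7% downstream. Exact AREs were rare, with 14 in gained sites, 10 in kept sites and 4 in lost sites. At the 10 kept sites the R1881 value was the higher one in 8, and the median log2 ratio was 0.78.

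FOXA1 motifs were most frequent where a kept site was higher with R1881. They were present in 17 of the 546 pairs at least 2-fold higher (3.11%, 1.95 to 4.93), in 0.925% of pairs within 2-fold (0.803 to 1.07) and in 1 of the 179 pairs at least 2-fold lower (0.559%, 0.0987 to 3.1). Gained sites held the motif in 1.46% (1.26 to 1.68) and lost sites in 0.771% (0.686 to 0.866), with 0.258% and 0.218% downstream. The forkhead core TGTTTAC, which overlaps the FOXA1 motif, was present in 13.2% of higher pairs (10.6 to 16.3), 9.66% of gained sites (9.16 to 10.2), 7.8% of lost sites (7.53 to 8.08) and 2 of the 179 lower pairs (1.12%, 0.307 to 3.98), with 3.0% downstream of gained and 2.74% downstream of lost sites. Within ranges of GC content the gained and lost shares of this core had overlapping intervals, at 14.5% and 13.6% below 42% GC, 10.1% and 9.22% from 42% to 50%, and 3.28% and 3.44% above 50%, where the order was turned. The CTCF motif showed no such order, at 0.783% of gained, 0.749% of kept and 0.76% of lost sites with overlapping intervals (0.0235%, 0.0374% and 0.0275% downstream). The GC box GGGCGG ran the other way, at 11.6% of gained, 13.6% of kept and 14.7% of lost sites (4.05%, 3.86% and 4.01% downstream), and was in 6.78% of higher pairs. The ETS core CCGGAAG was most frequent at kept sites, at 3.28% (3.04 to 3.52), with 2.18% of gained and 2.52% of lost sites (0.636%, 0.532% and 0.559% downstream). Of the other 2 short motifs searched, CCAAT was in 25.5% of gained and 25% of lost sites (26.4% and 25.6% downstream) and TGANTCA, bound by AP-1, in 7.71% and 8.65% (5.87% and 6.24% downstream).

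Strength and base composition moved with the classes, so the ARE was also counted within ranges of each. Among sites of 8 to 10 normalized tags, 1.48% of gained sites held an ARE (37 of 2505, 1.07 to 2.03) and 0.21% of lost sites did (9 of 4289, 0.11 to 0.398). At 10 to 15 normalized tags the shares were 1.54% (0.903 to 2.62) and 0.422% (0.164 to 1.08), with intervals that overlap. At 15 or more, none of the 134 gained sites held one, which allows a share of up to 2.24%, and 1 of the 55 lost sites did (1.82%, 0.322 to 9.61), so the order was not seen among strong sites. Median GC content was 44.5% in gained and 48.5% in lost sites. Below 42% GC, AREs were in 0.654% of gained (0.463 to 0.921) and 0.0599% of lost sites (0.0274 to 0.131). From 42% to 50% GC the shares were 1.32% (1.01 to 1.73) and 0.217% (0.142 to 0.331), and above 50% they were 0.919% (0.667 to 1.26) and 0.343% (0.265 to 0.445). The order thus held in all 3 ranges. The FOXA1 order was smaller there, at 2.53% of gained against 1.68% of lost sites below 42% GC. It had overlapping intervals in the other 2 ranges, at 1.35% (1.03 to 1.76) against 0.928% (0.756 to 1.14) from 42% to 50% and 0.248% (0.135 to 0.457) against 0.133% (0.0875 to 0.201) above 50%. By strength, the FOXA1 motif was in 2.68% of higher pairs (9 of 336, 1.42 to 5.01) and 0.892% of pairs within 2-fold (0.632 to 1.26) at 10 to 15 normalized tags with R1881, and in 2.25% of gained sites of that strength (1.45 to 3.49) and 1 of 947 lost sites (0.106%, 0.0186 to 0.596). At 8 to 10 normalized tags, with more sites, it was in 1.48% of gained (1.07 to 2.03) and 0.909% of lost sites (0.666 to 1.24), with intervals that overlap.

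**Figure D4:**
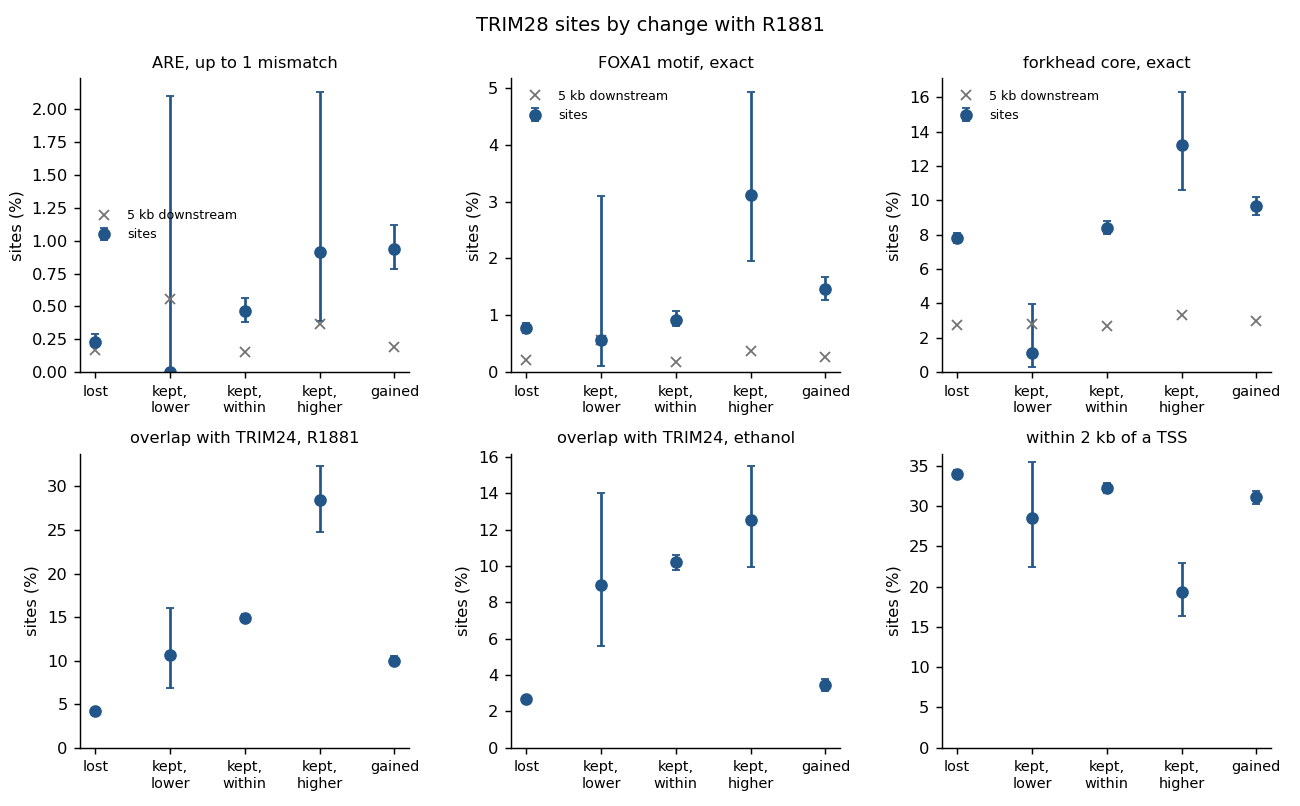
Share of TRIM28 sites (y axis, percent) in 5 classes ordered from lost to gained (x axis) that hold an ARE, a FOXA1 motif or the forkhead core, overlap a TRIM24 site with R1881 or with ethanol, or lie within 2 kb of a TSS; bars are Wilson 95% intervals and crosses the share in windows 5 kb downstream. AREs go from 0.231% of lost to 0.939% of gained sites, and overlap with TRIM24 with R1881 is highest, at 28.4%, in kept pairs at least 2-fold higher.

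TRIM24, a bromodomain protein that binds TRIM28, was mapped in the same series through an HA tag, in libraries of 11606880 tags with ethanol and 12884097 with R1881 that gave 4954 and 9006 sites on these chromosomes. TRIM28 sites that stood higher with R1881 overlapped TRIM24 sites of the R1881 list more often. The share was 28.4% of pairs at least 2-fold higher (155 of 546, 24.8 to 32.3), 14.9% of pairs within 2-fold (14.4 to 15.4) and 10.6% of pairs at least 2-fold lower (6.9 to 16.0). Gained sites overlapped in 9.95% (9.45 to 10.5) and lost sites in 4.21% (4.01 to 4.42). With the TRIM24 ethanol list, 12.5% of higher pairs (9.94 to 15.5), 8.94% of lower pairs (5.58 to 14.0), 3.44% of gained sites (3.14 to 3.77) and 2.66% of lost sites (2.5 to 2.83) overlapped. A TRIM24 site in the R1881 list alone lay under 8.11% of gained sites and in the ethanol list alone under 1.6%, while lost sites had 3.36% and 1.81%. The R1881 list of TRIM24 is the longer one, and it gave the larger overlap in all 5 classes. This difference in length was not allowed for.

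Stronger TRIM28 sites overlapped TRIM24 more often, and the higher pairs are stronger with R1881 by their definition, so the classes were set side by side at equal strength. At 10 to 15 normalized tags with R1881, 23.2% of higher pairs (78 of 336, 19.0 to 28.0) and 22.2% of pairs within 2-fold (20.8 to 23.5) overlapped a TRIM24 site with R1881, so the difference between them was not seen there. At 15 or more it was 51.6% of 122 higher pairs (42.9 to 60.3) and 35.1% of 1488 pairs within 2-fold (32.7 to 37.5). At 8 to 10 normalized tags, 14.6% of gained (13.3 to 16.0) and 15.1% of kept sites (14.2 to 16.1) overlapped a TRIM24 site with R1881. At 10 to 15 the shares of gained and kept sites were 29.9% (26.9 to 33.1) and 22.2% (20.9 to 23.5). Lost sites of 10 to 15 normalized tags overlapped in 16.5% (14.2 to 19.0), against 22.1% of kept ethanol sites (20.8 to 23.5). Where TRIM24 had a site in both lists, outside pericentromeric regions, its own log2 ratio of R1881 to ethanol had a median of 0.03 at 186 gained sites, -0.02 at 263 lost sites and -0.17 at 52 higher pairs, each with an interquartile range that spans 0.

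Over all sites, the promoter share was slightly lower for gained than for lost sites, and this order depended on strength and GC content. Within 2 kb of a TSS lay 31.1% of gained (30.3 to 31.9), 31.9% of kept (31.3 to 32.5) and 34% of lost sites (33.5 to 34.5). At equal strength the difference was larger, with 32.6% of gained (30.8 to 34.5) and 43.9% of lost sites (42.4 to 45.4) at 8 to 10 normalized tags, and 28.0% (25.1 to 31.1) and 43.3% (40.2 to 46.5) at 10 to 15. Within each range of GC content the order was the opposite, with intervals apart only above 50% GC. The shares were 13.0% of gained (12.1 to 14.0) and 11.8% of lost sites (11.2 to 12.5) below 42% GC. From 42% to 50% they were 20.1% (18.9 to 21.4) and 18.3% (17.5 to 19.1), and above 50% they were 63.6% (62.1 to 65.0) and 56.6% (55.8 to 57.3). Introns held 39.7%, 37.1% and 38.1%, and intergenic sequence held 26.3%, 27.9% and 25.3%. Before strength was allowed for, the pairs at least 2-fold higher with R1881 had the lowest promoter share of the classes. They lay within 2 kb of a TSS in 19.4% (16.3 to 22.9) and in introns in 49.1% (44.9 to 53.3), and their median distance to a protein-coding TSS was 34.7 kb, against 25.4 kb for gained and 22.1 kb for lost sites. Their median GC content was 44.5%, against 52.5% in the lower pairs, whose promoter share was 28.5% (22.4 to 35.5). Over all R1881 sites the promoter share fell with strength, to 19.9% at 15 or more normalized tags (18.1 to 21.8). At 10 to 15 it was 20.8% of higher pairs (16.8 to 25.5) and 28.5% of pairs within 2-fold, with intervals apart. At 8 to 10 the intervals overlapped, at 23.9% (16.2 to 33.7) and 33.5% (32.3 to 34.8). At 15 or more they overlapped too, at 12.3% (7.59 to 19.3) and 20.6% (18.7 to 22.8). Higher pairs were not tested within GC ranges. Among chromosomes, the share of R1881 sites that were gained ranged from 29.5% on chromosome 19 to 51.3% on chromosome X, which held 314 R1881 sites.

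Sites in zinc finger exons were more often kept than sites overall. In the last coding exon of ZNF genes lay 177 R1881 sites, of which 144 were kept and 33 gained (18.6%, against 37.4% of all R1881 sites). The lost share was 25.8%, with 50 lost and 144 kept ethanol sites, against 63.0% of all ethanol sites. These sites were also strong, with medians of 11.9 normalized tags with R1881 and 11.5 with ethanol at kept pairs, and strong sites of any kind were kept more often. The median log2 ratio was 0.14. Of the 144 kept pairs, 2 were at least 2-fold higher and 0 lower, beside 2.55% and 0.838% over all kept pairs. Of the 33 gained sites 22 had an ethanol site within 500 bp, and of the 50 lost sites 19 had an R1881 site that near.

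The androgen-induced genes and 7 other gene lists were chosen with results of these data known. Among the 20090 protein-coding genes, 35.3% had the TSS nearest to at least 1 gained site, 49.3% to a kept site and 62.9% to a lost site. The androgen-induced genes, of which 39 of the 40 listed matched the annotation, were above these shares in all 3 classes, with 29 nearest to a gained site (74.4%), 35 to a kept site (89.7%) and 36 to a lost site (92.3%). Of their 193 R1881 sites, 89 were gained (46.1%, 39.2 to 53.2), beside 37.4% over all genes. Their 104 kept pairs had a median log2 ratio of 0.22, beside 0.08 over all pairs. At least 2-fold higher were 4 of the 104 pairs (3.85%, 1.51 to 9.47), an interval that includes the 2.55% over all pairs. None was at least 2-fold lower, beside 0.838% over all pairs. The 4 higher pairs included those near ALDH1A3, a retinaldehyde dehydrogenase (log2 ratio 1.22), PTGER4, a prostaglandin receptor (1.19), and UAP1, an enzyme of the hexosamine pathway (1.03).

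Of the androgen-induced genes, 5 had a site of at least 15 normalized tags nearest to them. UAP1 had 15.5 with R1881 and 7.6 with ethanol in a coding exon (ratio 2.04, exact 95% interval 1.06 to 4.0, counting error only). PTGER4 had 15.5 and 6.8 at 416 kb upstream (ratio 2.28, 1.16 to 4.59). LRIG1, a negative regulator of receptor tyrosine kinases, had 20.4 and 13.5 in its intron (ratio 1.51, 0.886 to 2.55). SGK1, a serum- and hormone-induced kinase, had 14.1 and 21.1 at 283 kb upstream (ratio 0.668, 0.378 to 1.13). RHOU had a kept site of 16.9 and 11.1 and gained sites of 23.2 and 19.7, the latter being those at RNA5S17 and RNA5S16 of the 5S cluster. The intervals of LRIG1, SGK1 and the kept RHOU site (ratio 1.52, 0.84 to 2.71) include a ratio of 1.

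At well known androgen targets the values were below 15 normalized tags in both conditions. KLK3, which encodes the prostate-specific antigen, had a kept site 4.09 kb upstream of its TSS (chr19:51354001-51354157), in the stretch where its enhancer is known to lie, with 8.4 normalized tags with R1881 and 5.6 with ethanol. A lost site of 6.0 lay 2.92 kb upstream. KLK2, the neighbouring kallikrein, had kept sites of 7.7 and 10.3 at 3.67 kb upstream and of 7.7 and 7.2 at its TSS. TMPRSS2, a membrane serine protease, had 3 gained sites of 7.0 to 9.1 normalized tags, 3 kept pairs and 8 lost sites of 4.4 to 7.2. Its gained sites of 7.0 and 8.4 had an ethanol site within 500 bp. FKBP5 had gained sites of 9.8 and 9.1 in introns and of 7.7 at a promoter. The promoter site had an ethanol site within 500 bp. FKBP5 also had 3 lost sites of 4.8 to 6.4, and 2 kept pairs of 8.4 with R1881 and of 10.7 and 7.2 with ethanol. PMEPA1 had a gained site of 14.8 and SLC45A3 one of 13.4, the highest of the list after RHOU. Of all R1881 sites, 53.6% were kept at 6 to 8 normalized tags, 68.5% at 8 to 10 and 87.3% at 12 to 15, the range that holds the PMEPA1 and SLC45A3 sites.

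The other gene lists were set beside the same shares. Of the 12 prostate lineage transcription factors, 7 were nearest to a gained site (58.3%), 9 to a kept site (75%) and all 12 to a lost site. MYC alone had 14 gained, 8 kept and 18 lost sites, and 5 of its gained sites overlapped a TRIM24 site with R1881. GATA3 had a gained site of 14.1 normalized tags, and HOXB13 a kept site 0.152 kb upstream of its TSS with 11.9 with R1881 and 8.0 with ethanol. The other kept pairs of HOXB13 were lower with R1881, at 5.6 and 8.4 and at 7.0 and 9.5. HOXB13 had 4 lost sites and no gained one. The 43 kept pairs of this list had a median log2 ratio of 0.0, beside 0.08 over all pairs. Of the 14 genes of TRIM28 and its partners, 8 were nearest to a gained site (57.1%), and none of their 24 kept pairs was 2-fold apart. TRIM24 had 28.8 normalized tags with R1881 and 23.1 with ethanol at a site in its intron, and the single kept pair of TRIM28 itself had 9.1 and 8.7. Of the 29 cell-cycle genes, 5 were nearest to a gained site (17.2%), 12 to a kept site (41.4%) and 19 to a lost site (65.5%). Of their 28 R1881 sites, 8 were gained (28.6%, 15.3 to 47.1), an interval that includes the 37.4% over all genes. MKI67, the proliferation marker, had kept sites that reached 34.4 with R1881 and 37.4 with ethanol.

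ZNF genes were nearest to kept sites more often than other genes, at 334 of 516 (64.7%), and near the overall share for gained sites, at 180 of 516 (34.9%). Their gained share of R1881 sites was 28.8%, beside 37.4% over all genes. Of their 711 kept pairs, 6 were at least 2-fold higher (0.844%) and 6 lower, beside 2.55% and 0.838% over all pairs. Of the 51 ZSCAN, ZKSCAN and ZFP genes, 62.7% were nearest to a kept and 29.4% to a gained site. Of their 52 kept pairs, 2 were higher (3.85%, 1.06 to 13.0) and 0 lower. Olfactory receptor genes, which are silent in most tissues, were nearest to gained sites in 8.92% and to kept sites in 20.7% of 415. Of the 53 clustered protocadherin genes, none was nearest to a gained site, 5 had a kept site (9.43%) and 4 a lost site (7.55%).

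**Figure D5:**
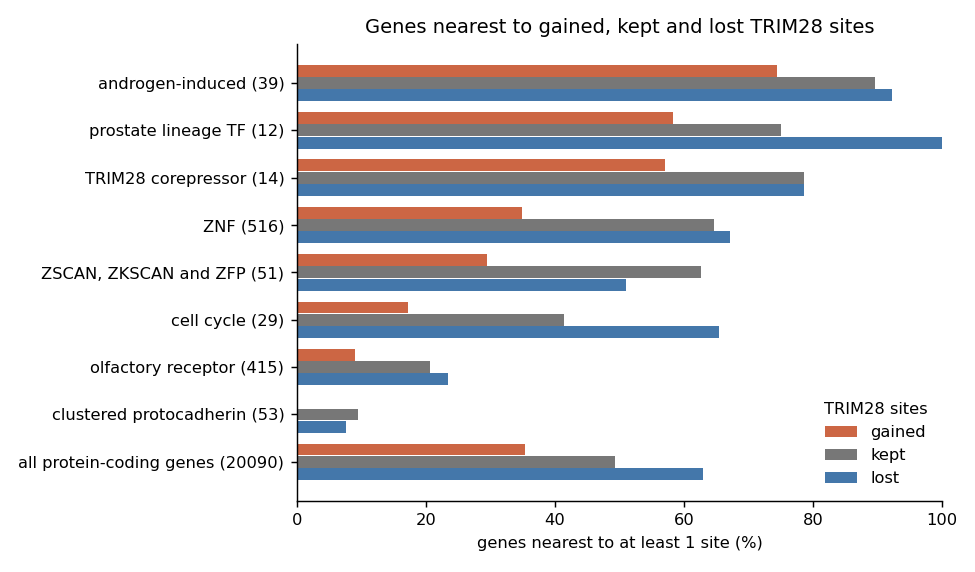
Share of genes (x axis, percent) whose TSS is nearest to at least 1 gained, kept or lost TRIM28 site, for each gene list and for all protein-coding genes (y axis, with the number of genes). Androgen-induced genes stand at 74.4% for gained, 89.7% for kept and 92.3% for lost sites, beside 35.3%, 49.3% and 62.9% of all protein-coding genes. Cell-cycle genes stand at 17.2%, 41.4% and 65.5%.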

How the data were processed

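TRIM28 and HA-TRIM24 ChIP-seq of LNCaP cells was represented by 1 sample per condition, with no replicates and no input in the recorded peak call. Per the submitters' processing notes, BWA 0.6.1 and HOMER 4.1 were used on hg19. The authors called sites per sample. Per the file headers, a site had to pass a false discovery rate of 0.001, a tag density of 4 times that within 10 kb and, for this local filter, a Poisson p of 1e-04. The deposited signal is the normalized tag count, scaled to 10000000 tags. The deposited score is unscaled and is the value to which the tag minimum applies. The deposited local fold is a ratio of tag densities. The methods describe random matching of read totals, whereas the totals in the headers differ and were used here.

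Tag numbers were recovered from the normalized tag count and the library total, and 100% were whole within its rounding. Sites were matched at 1 bp of overlap, and each kept R1881 site was paired with the strongest ethanol site under it. Positions and the nearest protein-coding TSS came from GENCODE release 44, mapped by its makers to GRCh37, by site centre, in the order promoter (2 kb of any TSS), UTR, coding exon, other exon, intron and intergenic. Shares have Wilson 95% intervals, and ratios of single pairs have exact intervals from 2 Poisson counts. No test between conditions was made, as each had 1 sample. Named genes were those of the 10 strongest gained and lost sites up to 100 normalized tags, of the kept pairs up to 100 in both lists with the 10 highest and 10 lowest ratios and the 5 strongest, and androgen-induced genes with a site of at least 15. Genes named outside this rule were chosen after their values were seen. Members, gene lists and settings were chosen with earlier results of these data known. Each setting was varied in turn, with 26 alternatives listed at the outset and 9 added after seeing the data. The scripts were tested on simulated data. Sites outside chromosomes 1 to 22 and X (511 with ethanol and 422 with R1881) were left out, and a few items are not reported here. Python 3.11.15, numpy 2.4.6, pandas 2.3.3, scipy 1.17.1, pysam 0.24.0 and matplotlib 3.10.9 were used.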

Additional observations from a re-analysis of the deposited data

Results flagged for a closer look

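TRIM28 sites outside chromosomes 1 to 22 and X entered none of the comparisons. The ethanol list held 511 of them and the R1881 list 422, on unplaced and other contigs. They were noted because they are signal in sequence left out of the main counts. Of these, 264 ethanol sites (51.7%) and 264 R1881 sites (62.6%) overlapped a site of the other condition. Their median strength was 8.4 normalized tags with ethanol and 11.9 with R1881.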

How the results depend on the processing

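No paired analysis was possible because each condition has 1 sample, and no replicate could be left out. In this paragraph paired values give gained sites first and lost sites second. The gained share of R1881 sites and the lost share of ethanol sites (37.4% and 63.0%) were 44.5% and 67.2% with centres within 100 bp, 50.1% and 70.5% with reciprocal overlap of 50%, 50.7% and 50.7% with equal numbers of the strongest sites, and 28.5% and 56.4% with a site within 500 bp, an alternative added after seeing the data. They were 15% and 15.6%, 7.67% and 3.06%, and 9.58% and 2.62% for sites of at least 10, 15 and 20 normalized tags. The share of ethanol sites expected at the R1881 depth (59.5%) was 47.0% with a minimum 1 tag higher and 56.1% with tags from the deposited score.

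The median log2 ratio of kept pairs (0.08) was 0.20 for the deposited local fold and -0.029 for pairs of at least 15. The pairs called higher and lower (546 and 179) numbered 2800 and 1496 at 1.5-fold, 30 and 2 at 3-fold, 360 and 278 when each list was divided by its median at kept sites, 903 and 107 for the local fold, and 122 and 96 for pairs of at least 15. Dividing by site width gave 678 higher and 116 lower. The promoter share (31.1% and 34%) was 25.2% and 28.5% within 1 kb, 21.0% and 24.2% with protein-coding TSSs, and 18.7% and 41.8% for sites of at least 15, where the order of lost over gained remained. The ARE share (0.939% and 0.231%) was 0.462% and 0.0854% in 100 bp, 0.11% and 0.011% with 0 mismatches, 5.45% and 3.07% with 2, and 0.0% and 1.82% for sites of at least 15. The FOXA1 share (1.46% and 0.771%) was 0.775% and 0.396% in 100 bp, 12.7% and 9.38% with 1 mismatch, and 0.0% and 0.0% for sites of at least 15. Overlap with TRIM24 with R1881 (9.95% and 4.21%) was 8.47% and 3.4% by centres within 100 bp and 55.2% and 40.0% for sites of at least 15. Androgen-induced genes nearest to a site (29 and 36) numbered 1 and 0 for sites of at least 15, by construction from fewer sites. The cause of the other shifts was not tested. Without sites within 5 Mb of a centromere gap, also added later, no recomputed value moved beyond its tolerance.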
